A study of Homo sapiens with 12 samples.

Results

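The NFIX transcript was described from the NONO peaks that the authors' annotation assigns to it in 6 eCLIP peak lists from 22Rv1 cells. The members are all peaks that carry the single gene name NFIX: 274 of the 26351 peaks over the 6 lists, and none under a name joined with another gene. eCLIP crosslinks RNA to protein with UV light, immunoprecipitates the protein and sequences the bound RNA fragments beside an input library taken before the immunoprecipitation. NFIX was chosen by the authors' log2 enrichment values of its peaks: it holds the region with the highest enrichment in its weakest list among the 101 regions found in all 6 lists. The presence of NFIX in every list and its enrichment in that region are therefore a description and carry no test.

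22Rv1 is a human prostate cancer cell line. Cells were given 20 µM SKBG-1(R) in 0.04% DMSO, 20 µM SKBG-1(S) in 0.04% DMSO, or 0.04% DMSO without compound, for 4 h in each case. They had been grown for 40 h, from 2 to 3 plates per condition, and were crosslinked with 400 mJ of UV. Each of the 3 groups had 2 lists, and each list came from 1 NONO immunoprecipitation set against its own input, 12 libraries in all. The labels do not say whether replicates came from separate cultures, so the p-values below rest on a spread that may be technical.

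NONO is a nuclear RNA- and DNA-binding protein, a core component of paraspeckles, with roles in transcription and pre-mRNA processing. NFIX is one of the 4 nuclear factor I genes, with NFIA, NFIB and NFIC. These proteins bind a palindromic DNA element as dimers through a conserved amino-terminal domain, and in prostate cells nuclear factor I proteins bind beside FOXA1 on DNA.

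In GENCODE 29 (GRCh38) NFIX (ENSG00000008441.16) lies on the plus strand of chromosome 19 from 12995608 to 13098796, a length of 103189 nt, with 14 transcripts. The transcript NFIX-203 has 10 exons. Its first exon (12995608 to 12995864, 257 nt) is followed by a first intron of 29156 nt (12995865 to 13025020), a second exon of 532 nt (13025021 to 13025552) and a second intron of 47494 nt (13025553 to 13073046). Other transcripts start inside that first intron. NFIX-212 begins with a 79 nt untranslated exon at 13012188 to 13012266, and NFIX-202 with a 101 nt exon at 13024580 to 13024680.

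The sequences shown place the peaks against these alternative starts. The coding part of the NFIX-203 first exon (chr19:12995838-12995864, plus strand) ends 6 nt before the region found in all 6 lists, and the coding part of the NFIX-202 first exon (chr19:13024645-13024680, plus strand) takes its place in transcripts that begin there. Capitals mark the start codon in both. The third sequence is the part of the NFIX-212 first exon (chr19:13012188-13012215, plus strand) that lies inside a region joined from peaks of 3 lists. The lists did not all cover this part. A peak of SKBG-1(R) replicate 2 (13012135 to 13012215) spanned it, and one of DMSO replicate 2 (13012136 to 13012193) reached only its start. In SKBG-1(S) replicate 2 the peak of that region ended before it, at 13012115. The fourth is the first 98 nt of a first-intron peak of SKBG-1(R) replicate 2 (chr19:13014414-13014511, plus strand), which is 67.3% G and C. It is readable here because the antisense transcript AC138474.1 covers it on the other strand. All 4 are reference sequence from the GENCODE 29 transcripts, and the remaining intronic sequence was not used here.
NFIX-203 first exon, coding part: ATGtactccccgtactgcctcacccag
NFIX-202 first exon, coding part: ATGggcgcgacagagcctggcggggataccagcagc
NFIX-212 first exon, part in the region: gcatgtaccaggctggctccgacgacgg
First-intron peak of SKBG-1(R) replicate 2, part: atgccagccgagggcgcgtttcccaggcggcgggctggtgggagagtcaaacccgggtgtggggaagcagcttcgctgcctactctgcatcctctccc

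The lists differed greatly in length, which bears on every count below. The SKBG-1(R) lists of replicates 1 and 2 ran to 1953 and 14847 peaks, the SKBG-1(S) lists to 1237 and 3967, and the DMSO lists to 669 and 3678. The list of replicate 2 was the longer in every group. The files give no read counts, so the depth of the libraries is unknown, and a gene or stretch missing from a short list is not shown to be free of NONO. Every listed peak had an enrichment of at least 3 on the log2 scale and a −log10 p of at least 3. Both values are the authors' own for each peak and serve here to describe peaks within a list.

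NFIX was among the genes with the most peaks in each list. It had 10 and 116 peaks in SKBG-1(R) replicates 1 and 2, 10 and 58 in SKBG-1(S) replicates 1 and 2, and 5 and 75 in DMSO replicates 1 and 2. By peak number it ranked 36 of 505 and 22 of 1296 names in the SKBG-1(R) lists, 18 of 366 and 4 of 924 in the SKBG-1(S) lists, and 25 of 238 and 3 of 811 in the DMSO lists. Over all lists it ranked 10, beside 1689 gene names with a peak. In all these ranks any peaks outside genes count together as a single name, which the 1689 leaves out. In all 3 groups the longer list held more NFIX peaks than the shorter one.

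Peaks of one list often abut, and abutting peaks share a stretch of RNA and are not independent of each other. Counted as abutting runs, NFIX had 9 and 84 in the SKBG-1(R) lists, 7 and 47 in the SKBG-1(S) lists, and 4 and 55 in the DMSO lists. Joined where they lay within 50 nt of each other, the peaks made 8 and 70 sites with SKBG-1(R), 7 and 42 with SKBG-1(S), and 4 and 48 with DMSO. The peaks were 5 to 152 nt wide, with a median of 57 nt. All lay on the plus strand, the strand of NFIX, so none is assigned to the antisense transcript AC138474.1.

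By the authors' annotation NONO peaks on NFIX were intronic. Of the 274 peaks, 217 were classed as distal intron and 51 as proximal intron, within 500 nt of a splice site, which together made 97.8%. Over all 26351 peaks the intronic share was 90.1%. Proximal intron peaks made 18.6% of the NFIX peaks and 24.0% of all peaks. The remaining NFIX peaks were 4 in a 5′ UTR and 2 in a 3′ UTR, and 0 lay in coding exons.

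The 4 peaks classed as 5′ UTR all lay at the untranslated first exon of NFIX-212, inside what is intron for NFIX-203. SKBG-1(R) replicate 2 had a pair of them, with log2 enrichments of 3.66 and 3.40, SKBG-1(S) replicate 2 had 1 at 4.08, and DMSO replicate 2 had 1 at 3.48. The 2 peaks classed as 3′ UTR lay in the last exon of the long transcripts. They did not overlap: SKBG-1(R) replicate 1 had one at 13096363 to 13096413 with a log2 enrichment of 3.43, and SKBG-1(S) replicate 1 had one at 13096529 to 13096634 with 3.73. No DMSO list held a peak in the last exon, and neither replicate 2 list of the compounds did.

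**Figure D1:**
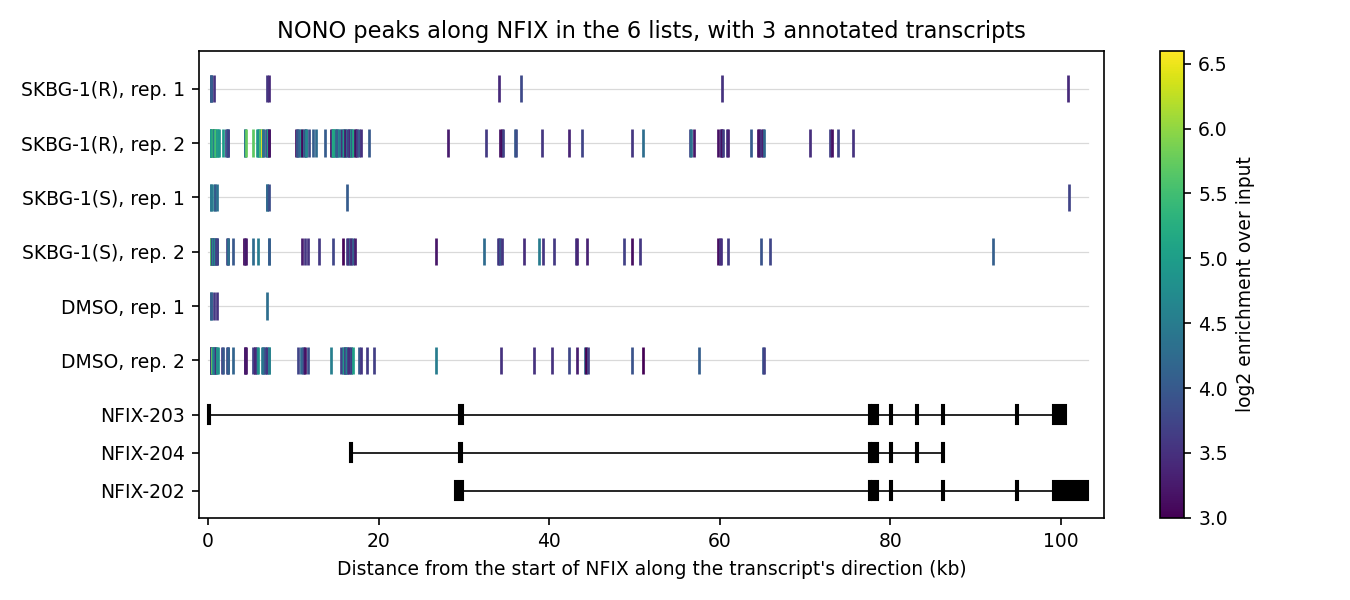
Position of every NFIX peak in the 6 lists along the gene (kb from the start, in the direction of transcription), coloured by the authors' log2 enrichment over input, above 3 annotated transcripts with exons as boxes. NFIX-204 starts in the same exon as NFIX-212. Peaks crowd into the first intron in all 6 lists, while peaks of the second intron appear in both SKBG-1(R) lists, SKBG-1(S) replicate 2 and DMSO replicate 2.

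The peaks were concentrated in the first intron of NFIX-203. It held 202 of the 274 peaks, or 73.7% (95% Wilson interval 68.2 to 78.6%), in 28.3% of the gene's length. The interval covers counting error only. It takes peaks as independent, which abutting peaks and sites found in several lists are not, so it is too narrow. These values include the region by which NFIX was chosen, and without its 32 peaks the share was 70.2%, 170 of 242 peaks. Its peak density over the 6 lists was 6.93 per kb, and that of the second intron was 1.45 per kb. The share of peaks in the first intron was 60.0% and 72.4% in SKBG-1(R) replicates 1 and 2, 90.0% and 62.1% in SKBG-1(S) replicates 1 and 2, and 100% and 82.7% in DMSO replicates 1 and 2. It was above the 28.3% of length in all 6 lists. Read starts and the amount of each intron's RNA were not among the values used, so a density here counts called peaks and not contacts per RNA molecule.

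Within the first intron the peaks were densest next to the first exon, where the region that chose NFIX lies, and that density is a description. The first 500 nt held 4 and 12 peaks in the SKBG-1(R) lists, 3 and 8 in the SKBG-1(S) lists, and 3 and 11 in the DMSO lists. These 41 peaks made 15.0% of all NFIX peaks, at 82.0 per kb over the 6 lists. Of them, 32 belonged to the region that chose NFIX, and the other 9 had their midpoints in the remaining 115 nt, at 78.3 per kb. Several of these 9 ran past the 500 nt mark. They lay directly beside the region that chose NFIX, so their density is no check apart from that choice. From the 500 nt mark to the NFIX-212 start there were 2 and 61 peaks in the SKBG-1(R) lists, 6 and 23 in the SKBG-1(S) lists, and 2 and 43 in the DMSO lists, at 8.66 per kb. From the NFIX-212 start to the second exon there were 0 and 11 peaks with SKBG-1(R), 0 and 5 with SKBG-1(S), and 0 and 8 with DMSO, at 1.87 per kb. That last stretch had a density close to that of the second intron and was empty in each replicate 1 list.

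The alternative starts inside the intron differed in their peaks. Within 500 nt of the NFIX-212 first exon there were 0 and 8 peaks in the SKBG-1(R) lists, 1 and 6 in the SKBG-1(S) lists, and 0 and 8 in the DMSO lists. Within 500 nt of the NFIX-202 first exon there were 0 in all 6 lists. The first and second exons of NFIX-203 also held 0 peaks in all 6 lists, and between the third exon and the last intron there was 1, in SKBG-1(S) replicate 2.

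**Figure D2:**
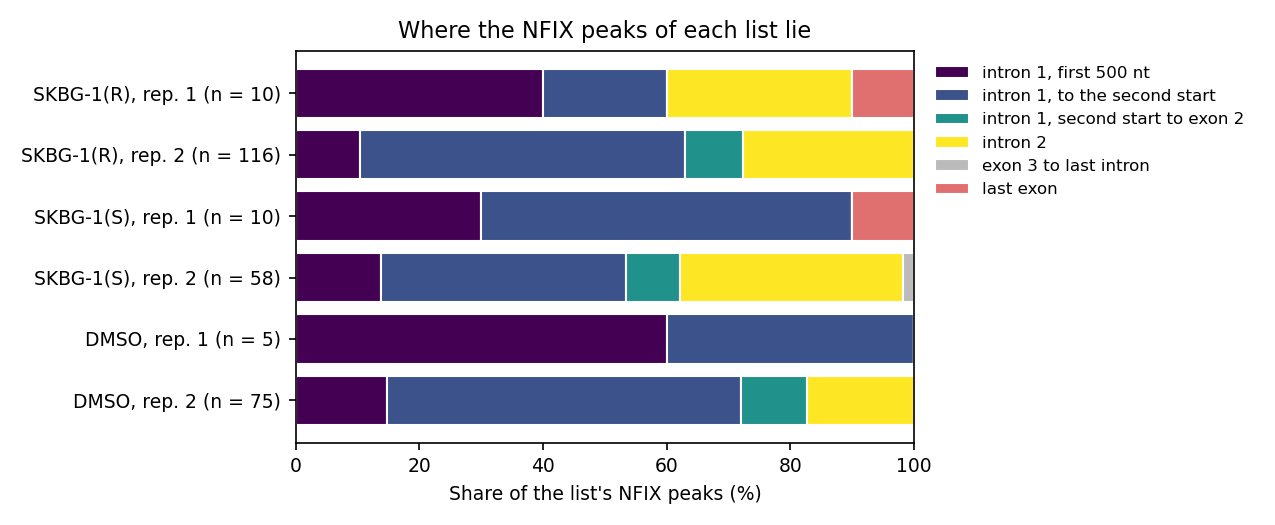
Share of the NFIX peaks of each list (%) that lie in each stretch of the gene, with the number of peaks in the list given as n. The second start is the start of NFIX-212. First-intron stretches make 60.0 to 100% of each bar, and the second intron is present in both SKBG-1(R) bars, in SKBG-1(S) replicate 2 and in DMSO replicate 2.

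The region that led to the choice of NFIX starts 6 nt after the end of the first exon, at 12995870, and ends at 12996254, a width of 385 nt. It joins 32 peaks in a chain: 3 and 10 from the SKBG-1(R) lists, 2 and 6 from the SKBG-1(S) lists, and 2 and 9 from the DMSO lists. Its highest log2 enrichment was 4.50 and 6.30 in SKBG-1(R) replicates 1 and 2, 4.47 and 5.69 in SKBG-1(S) replicates 1 and 2, and 4.66 and 5.78 in DMSO replicates 1 and 2. The best −log10 p was 7.12 and 38.3 with SKBG-1(R), 12.7 and 35.0 with SKBG-1(S), and 8.27 and 20.3 with DMSO. In 4 of the lists, SKBG-1(R) replicate 1, SKBG-1(S) replicate 2 and both DMSO lists, the highest enrichment on NFIX was in this region.

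The peaks in it did not cover the same bases in every list. They covered 119 and 354 nt in the SKBG-1(R) lists, 149 and 356 nt in the SKBG-1(S) lists, and 149 and 366 nt in the DMSO lists. The 3 replicate 1 lists therefore covered 30.9 to 38.7% of the region and the 3 replicate 2 lists 91.9 to 95.1%. The bases covered in all 6 lists came to 119 nt in 2 runs. The longer run was 12995891 to 12995960 (70 nt, from 27 nt after the exon), and the other was 12995983 to 12996031 (49 nt, from 119 nt after the exon).

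The peak with the highest enrichment in the region lay at different places. It was 12995891 to 12995938 and 12996149 to 12996172 in SKBG-1(R) replicates 1 and 2, 12995976 to 12996035 and 12995959 to 12996033 in SKBG-1(S) replicates 1 and 2, and 12995884 to 12995968 and 12996103 to 12996145 in DMSO replicates 1 and 2. In SKBG-1(R) replicate 2 and DMSO replicate 2 it therefore lay beyond the bases that all 6 lists share.

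**Figure D3:**
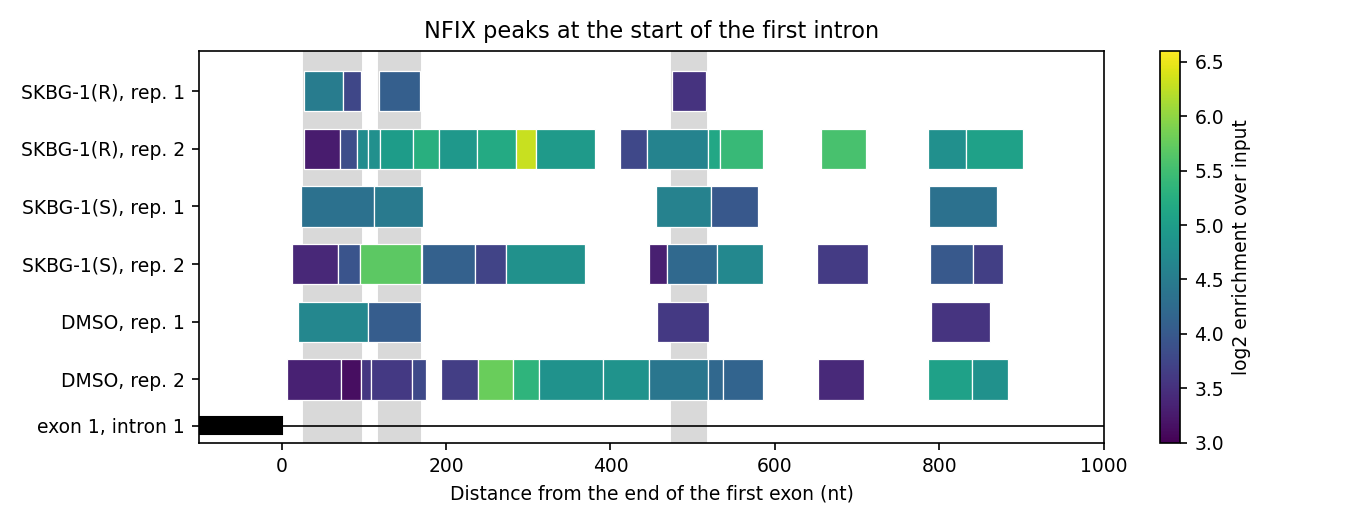
NFIX peaks of each list by distance from the end of the first exon (nt), coloured by the authors' log2 enrichment over input, with bases covered in all 6 lists shaded grey. The replicate 2 lists cover most of the first region, 354, 356 and 366 nt, and the replicate 1 lists 119, 149 and 149 nt.

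A second region found in all 6 lists abuts the first, from 12996255 to 12996448 (194 nt), and ranked 33 of the 101 such regions by its weakest list. Its highest log2 enrichment was 3.53 and 5.43 in SKBG-1(R) replicates 1 and 2, 4.58 and 4.68 in SKBG-1(S) replicates 1 and 2, and 3.60 and 4.85 in DMSO replicates 1 and 2. The bases covered in all lists were the 41 nt from 12996339 to 12996379. With the first region it forms a stretch from 6 nt after the exon in which every list has peaks.

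The first NFIX region stood at 4.47 by the log2 enrichment of its weakest list. Regions below it in that ranking lay in other genes, at 4.31 in ANP32A (chromosome 15, 68818665 to 68818908) and 4.20 in SSBP2 (chromosome 5, 81750281 to 81750558). BCOR (chromosome X, 40092057 to 40092296) had 4.13 and GPR35 (chromosome 2, 240626050 to 240626165) had 3.93. ANP32A encodes a nuclear phosphoprotein, SSBP2 a single-stranded DNA-binding protein, BCOR a corepressor and GPR35 a G protein-coupled receptor.

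Merged over the lists wherever at least 1 nt was shared, the NFIX peaks made 128 regions. Of these, 75 were in 1 list, 32 in 2, 15 in 3, 1 in 4, 3 in 5 and 2 in 6. The share found in 1 list was 58.6%, and over the 16419 regions of all genes it was 76.8%. The share found in all 6 was 1.56% for NFIX and 0.615% for all regions, a difference that the choice of NFIX used.

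The 3 regions found in 5 lists each lacked a different one. The region at 12996650 to 12996765, 786 nt after the exon, was missing from SKBG-1(R) replicate 1. The region at 13002406 to 13002648, 6542 nt after it, was missing from SKBG-1(S) replicate 2, and the region at 13002692 to 13002866, 6828 nt after it, from DMSO replicate 1. The region in 4 lists, at 13011870 to 13011976, 16006 nt after the exon and just before the NFIX-212 start, was held by SKBG-1(R) replicate 2, both SKBG-1(S) lists and DMSO replicate 2.

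**Figure D4:**
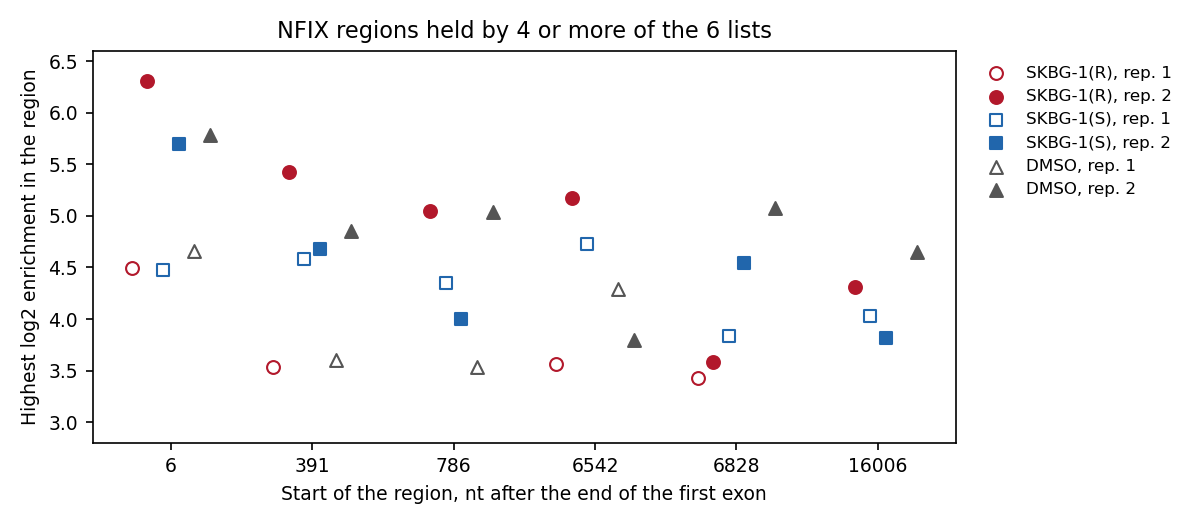
Highest log2 enrichment over input (the authors' value) in each list for the 6 NFIX regions held by 4 or more lists, ordered by start (nt after the end of the first exon, not to scale). Open symbols are replicate 1 and filled symbols replicate 2. The first region lies between 4.47 and 6.30, and every region has a list under 4.5.

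No NFIX region was held by both lists of one treatment and by none of the other 4 lists. Both SKBG-1(R) lists shared 5 regions, both SKBG-1(S) lists shared 5 and both DMSO lists shared 4, and in each case 0 of them were exclusive to the treatment. Over the regions of all genes, 140 of the 801 shared by both SKBG-1(R) lists, 18 of the 523 shared by both SKBG-1(S) lists and 3 of the 198 shared by both DMSO lists were exclusive. With 4 or 5 NFIX regions per treatment, a count of 0 tells little beside these shares. The 3 replicate 2 lists together held 19 regions, of which 14 were in no other list, beside 533 of 919 over all genes. Single-list regions of NFIX numbered 2 and 46 in the SKBG-1(R) lists, 1 and 12 in the SKBG-1(S) lists, and 0 and 14 in the DMSO lists. In each treatment the longer list held more of them. Matching counts per list over all genes were not made here, so these numbers are not shown to be particular to NFIX or to a treatment. Over the regions of all genes and lists, 76.8% were in 1 list.

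NFIX peaks of the short lists mostly recurred in the long list of the same treatment. Of the NFIX peaks of replicate 1, 7 of 10 with SKBG-1(R), 7 of 10 with SKBG-1(S) and 5 of 5 with DMSO overlapped a replicate 2 peak by at least 1 nt. Over all peaks of these lists the shares were 54.4%, 54.3% and 33.2%. Part of the NFIX overlap in both directions follows from choosing NFIX for a region found in all 6 lists. With SKBG-1(R), SKBG-1(S) and DMSO that region held 3, 2 and 2 replicate 1 peaks and 10, 6 and 9 replicate 2 peaks. In the other direction 12 of 116 NFIX peaks of SKBG-1(R) replicate 2, 11 of 58 of SKBG-1(S) replicate 2 and 11 of 75 of DMSO replicate 2 overlapped a replicate 1 peak, or 10.3%, 19.0% and 14.7%. Over all peaks of those lists the shares were 9.0%, 18.7% and 6.85%, so the NFIX shares with both compounds were close to those of all peaks.

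Among the long lists, overlap of NFIX peaks across treatments exceeded their overlap with the same treatment's short list. In SKBG-1(R) replicate 2, 46 of 116 NFIX peaks overlapped one of SKBG-1(S) replicate 2 and 55 of 116 one of DMSO replicate 2. In SKBG-1(S) replicate 2, 39 of 58 overlapped SKBG-1(R) replicate 2 and 34 of 58 overlapped DMSO replicate 2. In DMSO replicate 2, 54 of 75 overlapped SKBG-1(R) replicate 2 and 39 of 75 overlapped SKBG-1(S) replicate 2. These shares move with the length of the list searched, and they include the region that chose NFIX. The matching shares over all peaks were not made here, so the pattern is not shown to be particular to NFIX.

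Relative to list length, NFIX peaks did not pass the test between treatments. There were 51.2 and 78.1 NFIX peaks per 10000 listed peaks in SKBG-1(R) replicates 1 and 2, 80.8 and 146.2 in SKBG-1(S) replicates 1 and 2, and 74.7 and 203.9 in DMSO replicates 1 and 2. The SKBG-1(R) and DMSO lists overlapped, as did the SKBG-1(S) and DMSO lists, while both SKBG-1(R) lists lay below both SKBG-1(S) lists. Between lists of the same replicate number SKBG-1(R) was below DMSO for both numbers, and SKBG-1(S) was above DMSO for replicate 1 and below it for replicate 2. The means were 64.7 ± 19.0 with SKBG-1(R), 113.5 ± 46.2 with SKBG-1(S) and 139.3 ± 91.3 with DMSO (SD, n = 2 lists each).

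In limma's fit across the 479 genes with at least 10 peaks, on log2 peaks per 10000 with a prior count of 2, NFIX differed by −0.92 ± 0.88 between SKBG-1(R) and DMSO (log2 difference ± SE, Benjamini-Hochberg adjusted p = 0.993). The 95% interval was −2.75 to 0.91. The value moved to −0.46 with TMM factors, −1.48 in lists of equal length, −1.79 with peaks of log2 enrichment of at least 4 and −1.76 with a −log10 p of at least 5. Between SKBG-1(S) and DMSO the log2 difference was −0.18 ± 0.88, with an interval of −2.01 to 1.65 (limma, adjusted p = 1). Both comparisons use the same DMSO lists. At a threshold of 0.05, 0 of the 479 genes were called in each of the 3 comparisons of treatments, a called share of 0% in each. For the comparisons with SKBG-1(R) that count was not the same in every fit. With the replicate number as a block limma called 1 gene for SKBG-1(R) against DMSO. Leaving out SKBG-1(R) replicate 1 gave calls against both DMSO and SKBG-1(S), but that group then holds 1 list. NFIX was not called in any of these fits. At an unadjusted p under 0.05 limma gave 15 genes for SKBG-1(R) against DMSO, 6 for SKBG-1(S) against DMSO and 5 for SKBG-1(R) against SKBG-1(S). NFIX was in none of these sets, with unadjusted limma p-values of 0.309, 0.840 and 0.411.

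SKBG-1(R) and SKBG-1(S) were used at the same 20 µM for the same 4 h. The log2 difference in NFIX peaks per 10000 between SKBG-1(R) and SKBG-1(S) was −0.74 ± 0.88, with a 95% interval of −2.57 to 1.09 (limma, adjusted p = 0.995). The interval spans changes in both directions, so these lists do not show that the compounds act alike on NFIX. The medians of the log2 differences over the 479 genes were 0.23 for SKBG-1(R) against DMSO, 0.14 for SKBG-1(S) against DMSO and −0.08 for SKBG-1(R) against SKBG-1(S).

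An exact two-sided permutation test on NFIX alone, 2 lists against 2, cannot give a p below 0.333. It gave p = 0.667 for SKBG-1(R) against DMSO, p = 1 for SKBG-1(S) against DMSO and p = 0.333 for SKBG-1(R) against SKBG-1(S), and each was 1 after Benjamini-Hochberg adjustment over the 3 exact tests.

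**Figure D5:**
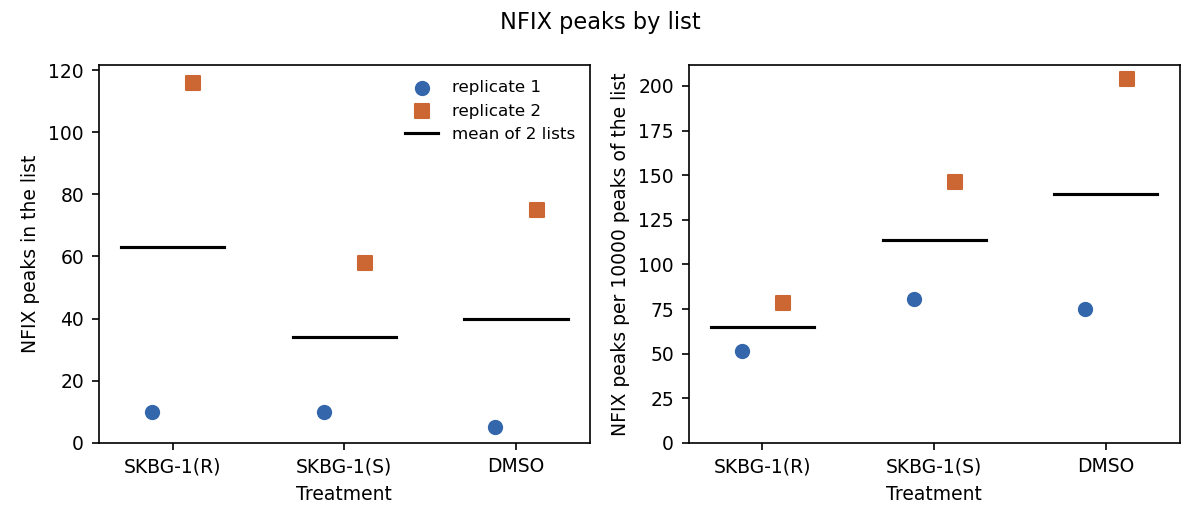
NFIX peaks in each list (left) and per 10000 listed peaks (right), by treatment, with replicate 1 as circles, replicate 2 as squares and the mean of the 2 lists as a line. Replicate 2 is above replicate 1 in every treatment, and the SKBG-1(R) lists, at 51.2 and 78.1 per 10000, lie below the SKBG-1(S) lists, at 80.8 and 146.2.

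The lists were also compared at one length. Of the 669 peaks with the highest −log10 p in each list, NFIX had 1 and 7 in the SKBG-1(R) lists, 7 and 9 in the SKBG-1(S) lists, and 5 and 28 in the DMSO lists. On this measure DMSO replicate 2 stood highest and SKBG-1(R) replicate 1 lowest, while the other 4 lists had 5 to 9. List length also differed between treatments, and its part in the differences was not tested beyond this and the scaling by length.

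The share of NFIX peaks in the second intron varied among the lists without passing a test. That intron held 3 and 32 peaks in the SKBG-1(R) lists, 0 and 21 in the SKBG-1(S) lists, and 0 and 13 in the DMSO lists, which was 30.0% and 27.6%, 0% and 36.2%, and 0% and 17.3% of the NFIX peaks in those lists. Both SKBG-1(R) shares lay above both DMSO shares, while the SKBG-1(S) lists were the lowest, tied with a DMSO list, and the highest. SKBG-1(S) replicate 1 and DMSO replicate 1 had 10 and 5 NFIX peaks. For their counts of 0 the Wilson intervals reach up to 27.8% and 43.4%. The DMSO limit lies above both SKBG-1(R) shares, and the SKBG-1(S) limit lies between them. The Wilson intervals of the SKBG-1(R) shares themselves start at 10.8% and 20.3%. These intervals overlap and, taking peaks as independent, are too narrow. The absence from these short lists therefore cannot be told from the level in SKBG-1(R).

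The mean share in the second intron was 28.8 ± 1.71% with SKBG-1(R), 18.1 ± 25.6% with SKBG-1(S) and 8.67 ± 12.3% with DMSO (SD, n = 2 lists each). The difference between SKBG-1(R) and DMSO was 20.1 percentage points, with an exact permutation p of 0.333, the smallest that 2 lists against 2 can give. For SKBG-1(S) against DMSO and for SKBG-1(R) against SKBG-1(S) the differences were 9.44 and 10.7 points, with an exact permutation p of 1 in both. All were 1 after Benjamini-Hochberg adjustment over these 3 tests, and this measure was chosen after its values were seen.

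The second-intron peaks made 49 regions, of which 34 were in 1 list, 13 in 2 and 2 in 3. One of the regions in 3 lists, at 13055685 to 13055890 and 59821 nt after the first exon, was held by both SKBG-1(R) lists and by SKBG-1(S) replicate 2, with log2 enrichments of 3.53, 3.53 and 3.51. The other, at 13045250 to 13045356, was held by the 3 replicate 2 lists, with 3.57 in SKBG-1(R), 3.13 in SKBG-1(S) and 3.92 in DMSO. All these values lie below those of the region at the first exon.

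The other nuclear factor I genes had fewer peaks. NFIC, which lies on chromosome 19 from 3314403 to 3469217, had 4 and 88 peaks in the SKBG-1(R) lists, 6 and 33 in the SKBG-1(S) lists, and 0 and 28 in the DMSO lists. NFIB had 0 and 0 with SKBG-1(R), 1 and 1 with SKBG-1(S), and 0 and 2 with DMSO, and NFIA had 0 in all 6 lists. Per length, NFIX had 26.6 peaks per 10 kb of gene over the 6 lists and NFIC 10.3. The NFIX value includes the 32 peaks of the region that chose NFIX. It was not the highest among the genes named here, since NACC1, the nearest gene with peaks downstream of NFIX, had 38.6.

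NFIC differed from NFIX in where its peaks lay. Its 159 peaks were 98.7% intronic and made 92 regions, of which 2 reached 5 lists and 0 reached all 6. With 0 NFIC peaks in DMSO replicate 1, no NFIC region could reach all 6. The median NFIC peak lay at 0.345 of the gene's length from its start, and the median NFIX peak at 0.112. The NFIX value includes the 32 peaks of the region that chose NFIX, which lies at the start of the gene. Both differences are therefore a description. The NFIX median was 7045.5 and 14738.5 nt from the start in SKBG-1(R) replicates 1 and 2, 3981.5 and 16075 nt in SKBG-1(S) replicates 1 and 2, and 743 and 7202 nt in DMSO replicates 1 and 2. In each treatment it was farther from the start in the longer list.

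Of the prostate transcription factors listed as acting with or beside nuclear factor I proteins, FOXA1, HOXB13, GATA2, CREB3L4, ERG and ETV1 had 0 peaks in all lists. GRHL2 had 3 and 12 with SKBG-1(R), 2 and 8 with SKBG-1(S), and 1 and 9 with DMSO. SPDEF had 2 and 29 with SKBG-1(R), 4 and 12 with SKBG-1(S), and 1 and 7 with DMSO, and ZBTB16 had 8 and 18 with SKBG-1(R), 0 and 10 with SKBG-1(S), and 0 and 15 with DMSO. GRHL2, SPDEF and ZBTB16 did not pass the limma test in any of the 3 comparisons.

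The genes with peaks nearest to NFIX were HOOK2, 203837 nt upstream, which had 3 peaks, all in SKBG-1(R) replicate 2, and NACC1, 19397 nt downstream. NACC1 encodes a nuclear BTB-domain protein and had 21 and 29 peaks in the SKBG-1(R) lists, 6 and 19 in the SKBG-1(S) lists, and 3 and 11 in the DMSO lists.

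Across the 479 genes with at least 10 peaks, the genes whose log2 peaks per 10000 tracked those of NFIX most closely over the 6 lists were TRAPPC9 (Pearson r = 0.946), MECOM (0.941), DENND5B (0.928), HOXB6 (0.911) and the joint name AC007240.1 and AC104794.5 (0.907). TRAPPC9 had 0 and 0 peaks with SKBG-1(R), 0 and 4 with SKBG-1(S), and 0 and 6 with DMSO. MECOM, DENND5B and HOXB6 had 0 in every replicate 1 list. In the replicate 2 lists of SKBG-1(R), SKBG-1(S) and DMSO, MECOM had 3, 3 and 4, DENND5B 3, 4 and 4, and HOXB6 1, 2 and 11. The joint name had 0 and 8 with SKBG-1(R), 2 and 15 with SKBG-1(S), and 1 and 16 with DMSO. These r values are a description over 6 points that share list length and treatment, and they rest on few peaks, with many lists at 0.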

How the data were processed

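Of the 12 libraries, 6 NONO immunoprecipitations and 6 inputs, the files hold 6 peak lists, each with a −log10 p per peak and a log2 enrichment over input per peak as deposited by the authors, with a gene name and a class per peak. Per the labels' protocols, libraries were made by the single-end eCLIP protocol and passed through the seCLIP pipeline. Cutadapt 1.9 and STAR 2.4.0i are named per the submitters' processing notes, and no peak caller is given in the sources used here. Those notes also name hg19, GRCh38 and hg38. All 12 NFIX transcripts in the authors' annotation match GENCODE 29 (GRCh38) within 1 nt, so GRCh38 is used here. Peaks were called per sample, 1 list for each immunoprecipitation.

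Peaks named NFIX were taken from each list, merged on one strand where they shared at least 1 nt, and placed in the stretches of NFIX-203 by their midpoints. NFIX peaks per 10000 listed peaks were compared with limma 3.58.1 (R 4.3.3, trended variance, all 6 lists in one fit, prior count 2, 479 genes with at least 10 peaks) with Benjamini-Hochberg adjustment, and with exact permutation tests (scipy 1.17.1). Wilson intervals cover counting error only and take peaks as independent, and limma intervals cover the spread between lists. Depth per sample is unknown. Alternatives were other scalings, filters, priors, stricter peaks, the replicate block and leaving out each list. The genes named were the nuclear factor I genes, a list of prostate transcription factors, the nearest gene with peaks on each side, the 5 genes most like NFIX over the lists and the next 5 regions in the ranking. Some of these genes are not reported here. The members and lists were chosen with earlier results of these data known. Motif counts in the peak regions had been planned and were not made, since the intronic sequence was not used here.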

Additional observations from a re-analysis of the deposited data

How the results depend on the processing

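The log2 differences of NFIX passed no test under any of the 19 alternatives, several of which, such as the block and the filters on few peaks, cannot move the estimate. Without scaling to list length NFIX gave 0.70 for SKBG-1(R) against DMSO (limma, adjusted p = 0.838), 0.21 for SKBG-1(S) against DMSO (adjusted p = 1) and 0.49 for SKBG-1(R) against SKBG-1(S) (adjusted p = 0.964), while the medians over all genes were 1.10, 0.21 and 0.75. SKBG-1(S) against DMSO also changed sign for covered nucleotides (0.034) and ranged from −0.88 to 0.52 over the lists left out, with 0.23 without SKBG-1(S) replicate 1 and 0.52 without DMSO replicate 2. The ranges over the lists left out were −1.62 to −0.22 for SKBG-1(R) against DMSO and −1.15 to −0.33 for SKBG-1(R) against SKBG-1(S). SKBG-1(R) against DMSO gave −0.46 with TMM factors, −1.48 in lists of equal length, −1.79 at a log2 enrichment of at least 4 and −1.76 at a −log10 p of at least 5, where SKBG-1(R) against SKBG-1(S) gave −0.36, −0.94, −1.29 and −1.37, and SKBG-1(S) against DMSO −0.10, −0.54, −0.49 and −0.40. The smallest limma adjusted p of NFIX over the alternatives was 0.290, for SKBG-1(R) against DMSO in lists of equal length. It was adjusted over the 88 genes fitted there and is not on the same footing as values over 479 genes. Genes called for SKBG-1(R) against DMSO numbered 1 with the replicate block, 1 for covered nucleotides, 1 with peaks within 50 nt counted once and 1 with joint names, and 0 to 23 with a list left out. Without DMSO replicate 2 the count was 1, and the 23 came from leaving out SKBG-1(R) replicate 1. For SKBG-1(R) against SKBG-1(S) the range was 0 to 24, with 24 without SKBG-1(R) replicate 1. Leaving out a list leaves 1 list in its group, so these counts are uncertain, and their cause was not tested. With the replicate number as a block NFIX gave −0.92 (limma, adjusted p = 0.591), −0.18 (adjusted p = 1) and −0.74 (adjusted p = 0.726). Deviations of same-numbered lists correlated at r = 0.540 for SKBG-1(R) and DMSO, 0.577 for SKBG-1(S) and DMSO and 0.422 for SKBG-1(R) and SKBG-1(S). The 2 pairs behind each value are not independent, since with 2 lists a group the deviations from its mean mirror each other. These values show only that lists of one number deviate together. The NFIX regions fell to 63 with peaks of log2 enrichment of at least 4 and to 17 in lists of equal length, and ranged from 86 to 128 with a list left out. Those found in all 6 lists were 0 at a log2 enrichment of at least 4, 1 at a −log10 p of at least 5 and 1 in lists of equal length, and 2 to 3 lay in every remaining list with one left out. The share of peaks in the first intron, an alternative added after seeing the data, was 70.4 to 76.9% with a list left out and 70.2% without the region that chose NFIX. The second-intron differences, added likewise, were 11.5 to 28.8 points for SKBG-1(R) against DMSO, −8.67 to 27.5 for SKBG-1(S) against DMSO and −7.41 to 28.8 for SKBG-1(R) against SKBG-1(S), and changed sign without SKBG-1(S) replicate 2 and without SKBG-1(S) replicate 1, in that order. Unknown depth limits what an absence from the shorter lists can show.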
